A study of Sus scrofa with 6 samples.

Results

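Isolated drug-only regions are stretches of accessible chromatin that were called in every deoxyshikonin library, in no control library, and far from any region called throughout the series. The data were ATAC-seq peak lists (assay for transposase-accessible chromatin with sequencing) from porcine (Sus scrofa) intestinal epithelial cells, with 3 control libraries and 3 libraries from cells stimulated with deoxyshikonin, a plant naphthoquinone related to shikonin. Neither the labels nor the series text give a dose, a duration, a vehicle or an origin of the cells beyond intestinal epithelium. Nor do they state that replicates are separate cultures, so p-values measure a spread over libraries that may be technical. The lists held 17169 to 25888 peaks in the controls and 33295 to 39281 under deoxyshikonin. Relative depth, solved for each library as its mean tag pileup over the genome, was 1.89, 2.13 and 2.57 in control replicates 1 to 3 and 2.06, 1.46 and 1.96 in deoxyshikonin replicates 1 to 3. Which chromatin opens on stimulation is the question the groups address.

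The regions were chosen by their peak calls and by their position. Peaks of the 6 lists were merged where they overlapped by 1 bp or more, which gave 51099 regions, and 6065 of them (11.9%) were drug-only, with a peak in all 3 deoxyshikonin lists and in no control list. Regions with a peak in all 6 lists, 13209 in number, are called shared below. Of the 5646 drug-only regions on contigs that held 10 or more regions, 2228 (39.5%) had no shared midpoint within 100 kb of their own, and these are the isolated drug-only regions. The other 3418 are called near drug-only regions, and 419 drug-only regions lay on contigs with fewer regions. Presence in both groups and the distance to shared regions were used to choose the members and are given as descriptions without a test. All 2228 have a peak, and so a deposited value, in each of the 3 deoxyshikonin lists. Calling is itself a filter on low values, which members passed in the deoxyshikonin lists alone, and no further filter was applied. Positions are given on contigs named LUXX01 and a number. Sequence and annotation of these contigs were not used here, and no gene, exon or promoter is assigned to a region.

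ATAC-seq marks DNA that is free enough of nucleosomes for the Tn5 transposase to cut. Across mammalian tissues, promoters of widely used genes tend to be open in most conditions and to sit in gene-rich stretches, whereas distal elements such as enhancers are more often open in a cell-type-specific or stimulus-dependent way and can lie far from the genes they act on. Intestinal epithelial cells form the barrier between gut contents and tissue and respond to many compounds through inducible elements of this kind. Whether a region given here is a promoter, an enhancer or neither cannot be read from the deposited lists.

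Isolated drug-only regions lay on 677 contigs, 70.2% of the 964 contigs that held 10 or more regions. Among the 2170 on a contig with a shared region, the distance to the nearest shared midpoint ranged from 100.2 to 3515 kb, with a median of 219 kb and quartiles of 144 and 361 kb. The nearest shared midpoint was 100 to 200 kb away for 970 of them, 200 to 400 kb for 723, 400 to 1000 kb for 423 and over 1000 kb for 54. A further 58, on 21 contigs, had no shared region on their contig at all. For 1803 regions the whole window of 100 kb on both sides fell between the first and the last region of the contig, and for the rest part of it lay beyond. At the limit itself, the members nearest to it were on LUXX01021084.1 at 30920 to 31525 (100.202 kb), LUXX01038081.1 at 574642 to 574991 (100.236 kb) and LUXX01086461.1 at 1471349 to 1471816 (100.306 kb). Their authors' fold enrichments averaged 6.95, 3.75 and 7.18. Just short of it were LUXX01050586.1 at 1443349 to 1443980 (99.989 kb), LUXX01085626.1 at 2457158 to 2457759 (99.9745 kb) and LUXX01075627.1 at 686540 to 686766 (99.971 kb), with 6.50, 4.69 and 4.59. Values on the 2 sides of the limit overlapped.

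Regions called under deoxyshikonin alone lay far from shared regions more often than regions that any control library also held. On contigs with 10 or more regions, 28.8% of all 45948 regions had no other shared midpoint within 100 kb, and 27.3% of the 40302 that were not drug-only. The share was 38.5% for regions of a single deoxyshikonin library, 37.4% for regions of 2 deoxyshikonin libraries and, as given above, 39.5% for drug-only regions, all without a control peak. It was lower with each control library that also held the region, to 27.1% for regions of 3 deoxyshikonin libraries and 1 control, 22.5% with 2 controls and 19.2% for shared regions, measured to the next shared region. Regions of a single control library stood at 19.2%, regions of 2 control libraries at 14.0% and those of all 3 controls and no deoxyshikonin library at 15.7%. Without a control peak, the share was thus similar for 1, 2 and 3 deoxyshikonin lists. With 1 control peak it was 19.2%, 21.5%, 22.0% and 27.1% for 0, 1, 2 and 3 deoxyshikonin lists, and with 2 control peaks 14.0%, 18.9%, 17.8% and 22.5%, so that there it was highest where all 3 deoxyshikonin lists held the region.

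**Figure D1:**
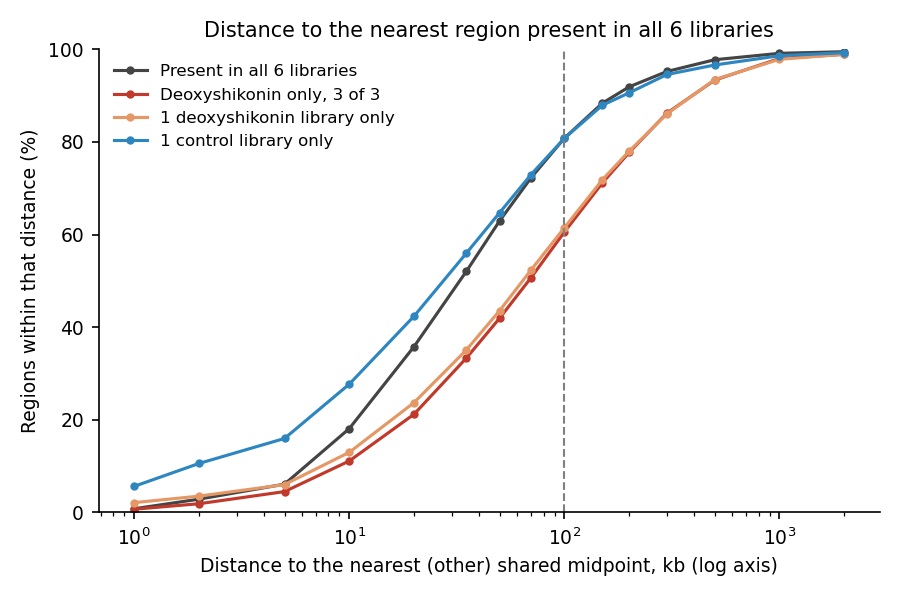
Share of regions (vertical axis, %) whose nearest shared midpoint lies within a given distance (horizontal axis, kb, log scale), for 4 classes on contigs with 10 or more regions, with the dashed line at 100 kb. At 100 kb the curves stand at 60.5% for drug-only regions and 61.5% for regions of 1 deoxyshikonin library, against 80.8% both for shared regions and for regions of 1 control library.

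The same contrast appeared as density along the contigs. Between the first and last region of each contig the contigs spanned 1832 Mb, of which 820 Mb (44.8%) lay more than 100 kb from a shared midpoint. Drug-only regions occurred there at 2.72 per Mb, against 3.38 per Mb in the remaining 1012 Mb, so that their density near shared regions was 1.24 times that far from them. Regions of a single deoxyshikonin library gave a ratio of 1.29. Regions of 3 deoxyshikonin and 1 or 2 control libraries gave 2.51, and regions of a single control library gave 3.40. In steps of distance, drug-only regions numbered 3.00 per Mb within 10 kb of a shared midpoint, 3.68 at 10 to 25 kb, 3.38 at 50 to 100 kb, 3.12 at 100 to 200 kb and 2.18 beyond 400 kb. Regions of 1 control library thinned over the same steps from 2.85 per Mb within 10 kb to 1.11 at 50 to 100 kb, 0.679 at 100 to 200 kb and 0.379 beyond 400 kb.

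**Figure D2:**
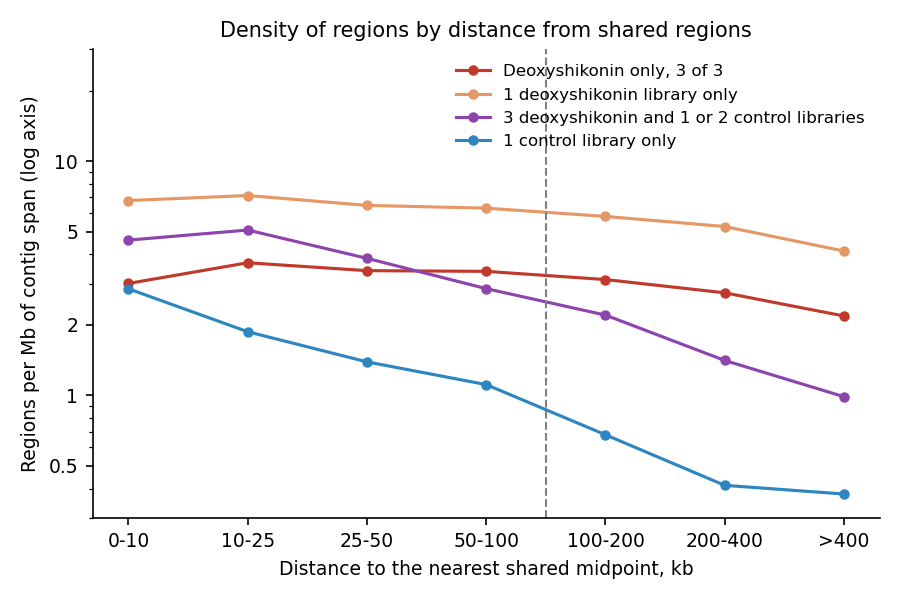
Regions per Mb of contig span (vertical axis, log scale) in 7 steps of distance from the nearest shared midpoint (horizontal axis, kb), for 4 classes of regions, with the dashed line at 100 kb. Drug-only regions run from 3.00 per Mb in the first step to 2.18 in the last, and regions of 1 control library from 2.85 to 0.379.

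Regions seen in 1 library only, none of which is a member, allowed a comparison over libraries. Among them, those with no shared midpoint within 100 kb made up 23.1% in control replicate 1 (112 of 484, 95% Wilson interval 19.6 to 27.1), 23.2% in control replicate 2 (42 of 181, 17.7 to 29.9) and 17.5% in control replicate 3 (259 of 1483, 15.6 to 19.5). In deoxyshikonin replicates 1 to 3 they made up 39.5% (1387 of 3507, 37.9 to 41.2), 38.1% (973 of 2551, 36.3 to 40.0) and 38.0% (1844 of 4854, 36.6 to 39.4). All 3 deoxyshikonin libraries lay above all 3 controls, at 38.6 ± 0.860% against 21.3 ± 3.30% (SD, n = 3 each). The difference was 17.3 percentage points (two-sided exact permutation p = 0.1, the smallest that 3 libraries against 3 can give, so that 0.05 cannot be reached). Intervals cover counting error only, and regions are not independent.

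The same one-library regions were counted beside isolated drug-only regions, a measure that depends on the first, since members lie only where shared regions are far. Members were also chosen by their calls in both groups, so the choice enters this measure. Its difference between groups is a description, and its p gives no support. A member midpoint lay within 100 kb for 10.1%, 9.94% and 7.35% of the one-library regions of control replicates 1 to 3. The corresponding shares were 18.6%, 18.0% and 18.3% in deoxyshikonin replicates 1 to 3. The groups did not overlap, with means of 9.14 ± 1.55% and 18.3 ± 0.328% (SD, n = 3 each), a difference of 9.18 percentage points (two-sided exact permutation p = 0.1, the smallest possible). The count of one-library regions beside a member, per 100 that were far from shared regions, was 42.1 to 43.8 in the controls. It was 47.2 to 48.2 under deoxyshikonin. This is a ratio of counts and not a share, since a region beside a member can itself have a shared midpoint within 100 kb. The 2 measures thus rose largely together, and how much of the second difference repeats the first was not tested. The deoxyshikonin lists are longer, and with all lists held to 17169 peaks the 2 differences were 13.5 and 2.66 points (both with an exact permutation p of 0.1). How much of either difference comes from list length was not tested.

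**Figure D3:**
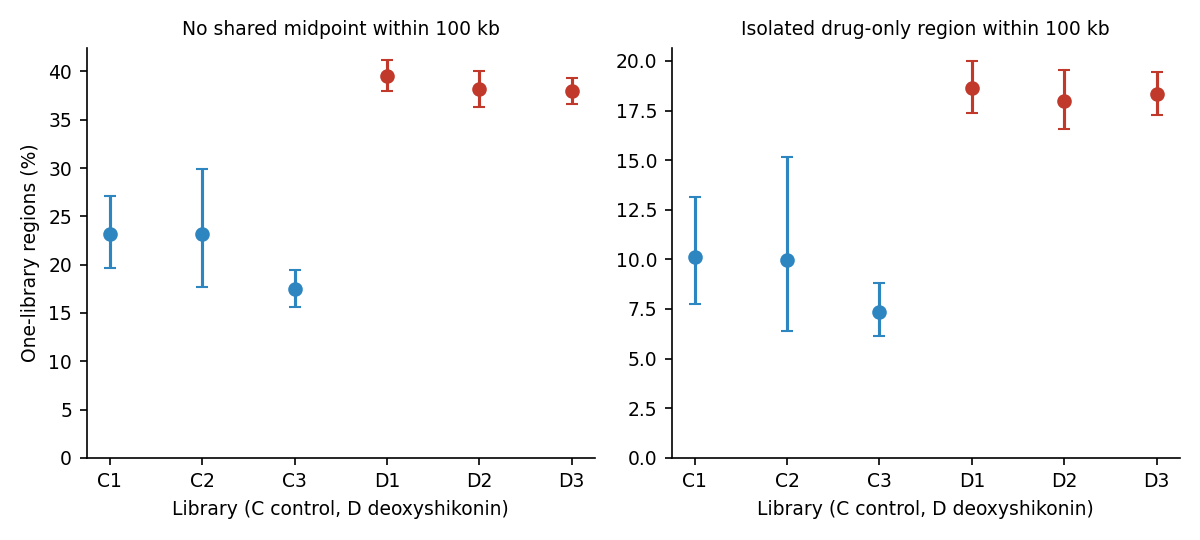
Left, share of each library's one-library regions (vertical axis, %) with no shared midpoint within 100 kb; right, share with an isolated drug-only region within 100 kb, for control (C) and deoxyshikonin (D) replicates 1 to 3. Points are libraries and bars 95% Wilson intervals; the deoxyshikonin libraries sit at 38.0 to 39.5% on the left and 18.0 to 18.6% on the right, above every control.

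Around isolated drug-only regions, most neighbouring regions were also called under deoxyshikonin alone, as were most regions far from shared ones. Of all 13248 regions without a shared midpoint within 100 kb, 45.8% were of 1 or 2 deoxyshikonin libraries without a control peak and 16.8% were the members themselves. The nearest region of any kind was one of 1 or 2 deoxyshikonin libraries without a control peak for 1233 members (55.3%) and another drug-only region for 474 (21.3%). It held a peak of some control library in the other cases, with a shared region the closest for 34 (1.53%). Around near drug-only regions the corresponding shares were 33.0%, 12.6% and, for shared regions, 30.1%. The choice of members removes shared neighbours and thereby raises the other shares, so these differences are no result about the members. The median distance from a member to the nearest other region was 20.2 kb, to the nearest region of 1 or 2 deoxyshikonin libraries 38.5 kb, to the nearest other drug-only region 109 kb and to the nearest region called in controls alone 520.3 kb. Isolation from shared regions was not isolation from every control peak: 1003 members (45.0%) had a region with at least 1 control peak within 100 kb, and 184 within 10 kb. The other 1225 had no region with any control peak within 100 kb.

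Another isolated drug-only region lay within 100 kb (midpoint to midpoint) of 920 members, and 1308 (58.7%) had none that near. Cut into groups whose midpoints all fit within 100 kb, densest first, 340 groups held 2 members, 53 held 3, 9 held 4, and 1 each held 5 and 6; members beside a group can fall outside it. The group of 6 spanned 99.1 kb of LUXX01022101.1 at 971789 to 1070851, where mean fold enrichments ran from 5.48 to 7.11 and no region held a control peak. Its members lay 146 to 209 kb from a shared midpoint. The group of 5, on LUXX01025151.1 at 620970 to 683867, had fold enrichments of 4.11 to 7.06 and 2 regions with a control peak inside it. A group of 4 on LUXX01009232.1 at 1356124 to 1405864 spanned 49.7 kb, with fold enrichments of 4.81 to 8.80 and no other region within the stretch. Between 2 neighbouring shared regions lay 1250 members, in 708 gaps with a median length of 520 kb, of which 410 held 1 member and 27 held 5 or more.

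Per contig, 201 contigs held 1 member, 163 held 5 or more and 29 held 10 or more. LUXX01096521.1 had 17 among 270 regions over a span of 10.1 Mb, beside 54 shared and 35 near drug-only regions. LUXX01057268.1 had 16 among 101 regions over 4.14 Mb, or 3.87 per Mb. The contigs LUXX01006980.1, LUXX01067594.1 and LUXX01079738.1 had 14 each, over 6.57, 3.23 and 7.27 Mb, with 10, 12 and 19 shared regions. On these 5 contigs the members' mean fold enrichments ran from 3.32 to 8.49, within the range of all members.

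In shape and rank, isolated and near drug-only regions were close to each other, while their local background, described below, differed. Median peak width was 379, 346 and 354 bp for isolated drug-only regions in deoxyshikonin replicates 1 to 3, and 365, 340 and 358 bp for near ones. The difference of 5.33 ± 9.02 bp (SD, n = 3 libraries) ran in both directions (exact sign-flip permutation p = 0.5, smallest possible 0.25). The median percentile of −log10 q within each list was 42.6, 39.7 and 43.0 for isolated regions and 41.2, 39.9 and 43.5 for near ones, a difference of 0.245 ± 1.02 points (SD, n = 3, exact permutation p = 1). Neither difference exceeded the spread between libraries. Shared regions in the same lists were wider, at 636, 561 and 583 bp, and ranked higher, at the 78.5, 76.2 and 79.9 percentile, a contrast that their definition by 6 calls favours.

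The local background of isolated drug-only regions was lower. This background is the tag pileup that the peak caller expected at a summit from the surrounding 10000 bp, solved here from the deposited fold enrichment and p, and divided by the library's genome-wide background. It includes the tags of the peak itself. Its median was 1.39, 1.45 and 1.40 at isolated drug-only regions in deoxyshikonin replicates 1 to 3, 1.64, 1.72 and 1.63 at near ones, and 2.28, 2.45 and 2.32 at shared regions. The isolated value was lower than the near one in 3 of 3 libraries, by −0.254 ± 0.0196 (SD, n = 3, exact permutation p = 0.25, the smallest possible). The choice by distance keeps shared midpoints out of this window at isolated regions. Of all 5646 drug-only regions on these contigs, 4.5% had a shared midpoint within 5 kb, the reach of the window to each side. All of these were near ones. The choice of members thus enters this comparison, and how much of the difference it accounts for was not tested. The share of peaks whose local background was at the library's floor was 15.4%, 12.4% and 15.9% for isolated regions and 7.78%, 6.97% and 8.23% for near ones.

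With a lower background, a smaller pileup gave a larger fold. The median summit pileup was 20, 17 and 20 tags at isolated drug-only regions and 21, 18 and 22 at near ones. The median fold enrichment, the authors' ratio of pileup to local background, was nevertheless 5.23, 5.52 and 5.45 at isolated regions against 4.91, 5.28 and 5.22 at near ones. The log2 difference was 0.07 ± 0.016 (SD, n = 3, higher in 3 of 3 libraries, exact permutation p = 0.25). With pileup over the library's own background in place of the fold, the log2 difference was −0.10, lower at isolated regions in 3 of 3 libraries. The direction of a difference in strength thus depended on the background used.

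**Figure D4:**
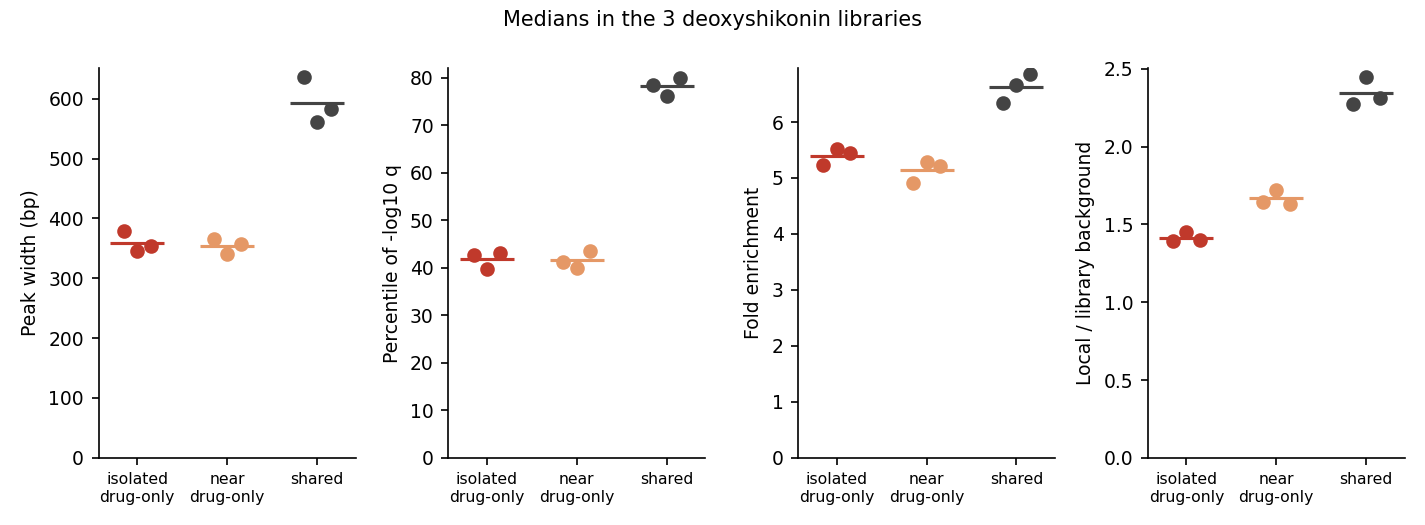
Medians per deoxyshikonin library (points, replicates 1 to 3 from left to right) and their mean (line) of peak width in bp, percentile of −log10 q, fold enrichment and local over library background, for isolated drug-only, near drug-only and shared regions. Isolated and near regions overlap in width and percentile, and in local background the isolated values of 1.39 to 1.45 lie below the near values of 1.63 to 1.72.

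Among isolated drug-only regions, local background was lower at greater distance while rank was similar. The mean over the 3 deoxyshikonin libraries of the median local background was 1.51 ± 0.0471 for the 970 members 100 to 200 kb from a shared midpoint, 1.43 ± 0.0439 for the 723 at 200 to 400 kb, 1.25 ± 0.0193 for the 423 at 400 to 1000 kb and 1.17 ± 0.0111 for the 54 beyond that (SD, n = 3 each). Fold enrichment went from 5.31 ± 0.182 in the first of these classes to 5.42 ± 0.193, 5.51 ± 0.154 and 5.80 ± 0.237, which overlapped between neighbouring classes. The percentile of −log10 q was 41.8 ± 1.79, 43.0 ± 1.44, 40.0 ± 2.78 and 43.3 ± 6.32 in the same order (SD, n = 3 each), differences within the spread of the libraries. The 58 members on contigs without a shared region had a local background of 1.35 ± 0.0539 and a fold enrichment of 5.48 ± 0.218.

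Isolated drug-only regions covered a wide range of strength. Merged width ran from 216 to 1438 bp with a median of 491.5 bp, and the mean fold enrichment over the 3 deoxyshikonin libraries from 3.32 to 10.8 with a median of 5.46. By mean percentile of −log10 q, 97 (4.35%) stood at or above percentile 75 of their lists, 412 (18.5%) below percentile 25 and 7 at or above percentile 90. Near drug-only regions gave 4.15% and 18.5% for the first 2 of these. The coefficient of variation of fold enrichment over the 3 libraries had a median of 12.5% at isolated regions, 12.2% at near and 10.0% at shared regions. Summits of the 3 libraries lay within a median of 92 bp of each other at isolated, 87 bp at near and 70 bp at shared regions, and the stretch common to the 3 peaks was 55.2%, 56.1% and 70.7% of their combined length. Across the 2228 members, log2 fold enrichment correlated between pairs of deoxyshikonin libraries at a Pearson r of 0.51 to 0.57, against 0.59 to 0.63 over near drug-only and 0.81 to 0.82 over shared regions. These are descriptions across regions of lists with unequal ranges of strength.

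The highest-ranked member lay on LUXX01077104.1 at 449061 to 449999, 613 kb from the nearest shared midpoint. Its fold enrichment was 8.87, 8.33 and 8.45 in deoxyshikonin replicates 1 to 3 (8.55 ± 0.281, SD, n = 3), with summit pileups of 71, 52 and 60 tags. Its −log10 q ranked at percentiles 98.7, 95.6 and 95.6 of the lists, and the nearest region with a control peak was 139 kb away. The next was on LUXX01096521.1 at 5749506 to 5750231, with fold enrichments of 8.22, 9.15 and 8.10 and 152 kb to the nearest shared midpoint, which was also the nearest region with a control peak. The region on LUXX01098041.1 at 1441169 to 1441663 had 10.2, 7.81 and 9.54, with deoxyshikonin replicate 2 the lowest. On LUXX01019437.1 at 112102 to 112943 the values were 7.92, 9.51 and 9.32, and a region with a control peak lay 1.84 kb away. These 4 regions are alike in rank and unlike in the distance to a control peak.

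The largest mean fold enrichment of any member, 10.8 ± 1.69 (SD, n = 3), was on LUXX01029141.1 at 265465 to 266054, at 8.87, 12.1 and 11.4 in replicates 1 to 3. Its summits fell within 15 bp of each other. The region on LUXX01060706.1 at 720655 to 721145 was steadier, at 9.84, 10.4 and 10.0, and lay 506 kb from a shared midpoint and 409 kb from any region with a control peak. On LUXX01034237.1 at 2184937 to 2185506 the fold enrichment was 7.32, 8.70 and 7.84, with summits within 13 bp. On LUXX01023133.1 at 1178979 to 1179581 it was 8.29, 11.3 and 10.0. In 6 of these 8 regions deoxyshikonin replicate 2, the shallowest library, had the highest fold enrichment, and in 2 the lowest.

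**Figure D5:**
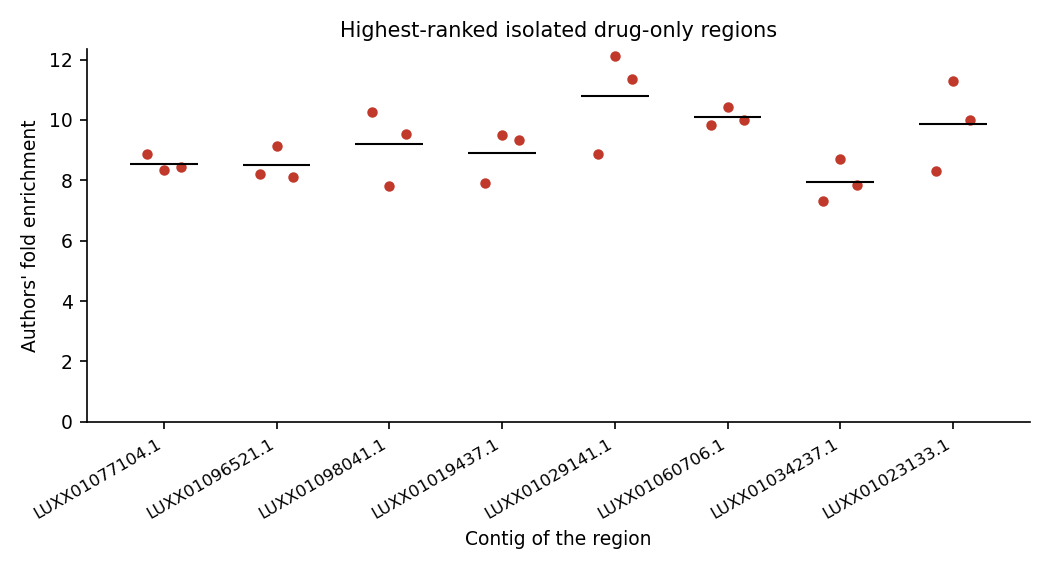
Authors' fold enrichment (vertical axis) in deoxyshikonin replicates 1 to 3 (points from left to right) and its mean (line) for the 8 isolated drug-only regions ranked highest by −log10 q, by contig (horizontal axis). Means run from 7.96 to 10.8, and, by definition, no control library had a peak in any of the 8.

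At the other end, the lowest-ranked members had mean percentiles of −log10 q of 3.55 to 4.03. LUXX01034126.1 at 3278734 to 3279310 had fold enrichments of 3.68, 3.64 and 3.91 and a mean percentile of 3.55. LUXX01050113.1 at 2127749 to 2128283 had 3.74, 4.07 and 3.98, with 13, 10 and 13 tags at the summit. LUXX01072352.1 at 1144001 to 1144751 had 3.44, 3.54 and 3.32, with 17, 14 and 17 tags, and its summits lay up to 288 bp apart. The median summit pileup over all members was 20, 17 and 20 tags in deoxyshikonin replicates 1 to 3.

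The widest members by merged width were of middling rank. The region on LUXX01033644.1 at 2612742 to 2614179 was 1438 bp wide after merging, but its summits lay up to 1182 bp apart and its peaks were 925, 671 and 627 bp wide, so the width came from joining offset peaks. Its fold enrichments were 5.68, 5.99 and 5.42, and it was not a member with windows around summits. The next, LUXX01091677.1 at 50381 to 51746, was 1366 bp wide with summits within 140 bp and fold enrichments of 6.10, 6.35 and 5.93, and had no region with a control peak within 731 kb. The third, LUXX01048137.1 at 4998623 to 4999967, was 1345 bp wide with fold enrichments of 5.93, 5.03 and 5.45, and its summits lay up to 627 bp apart.

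The most distant members ranked from percentile 24.98 to 66.7. The farthest, on LUXX01050044.1 at 102267 to 102588, lay 3515 kb from the single shared region of its contig and had fold enrichments of 4.58, 5.69 and 6.08. LUXX01083928.1 at 3198414 to 3198666, at 2239 kb, had 3.73, 4.83 and 4.93. Both of the next pair were on LUXX01047818.1, at 319837 to 320149 and 420524 to 420947, with mean fold enrichments of 6.14 ± 0.290 and 7.06 ± 0.722 (SD, n = 3 each). A region with a control peak lay 2.74 kb from the first of them. LUXX01071738.1 at 2323009 to 2323638 was 1825 kb from a shared midpoint, with 5.24, 4.88 and 6.21.

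Heights of the members under deoxyshikonin were set against the depth of the control lists. At a member's mean pileup over library background, the expected summit pileup in control replicates 1 to 3 had a median of 19.8, 22.4 and 27.0 tags, where the lowest called summits held 9, 10 and 11. On that expectation, all 2228 members, and likewise all 3418 near drug-only regions, would pass the lowest −log10 p of each control list (4.37, 4.54 and 4.23). With heights lowered to 0.83 of their value, the ratio of control to deoxyshikonin median heights at shared regions, 2221, 2226 and 2228 would still pass. This is an expectation without counting noise from heights that were themselves required to be called 3 times, which favours high values. It rests on the comparison that chose the members and, being at or near its maximum in both classes, supports no statement on why control peaks are missing.

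Shared regions that flank isolated drug-only regions offered a readout that the choice of members had not used. These are the nearest shared region on each side of a member, 1781 in all. Heights, the summit pileup over library background centred on each library's median, were compared at all 13209 shared regions with limma (threshold 0.05 on the p adjusted by Benjamini-Hochberg over all of them, 3 libraries a group). Of all shared regions 6.68% were higher under deoxyshikonin and 7.71% lower. Of the flanking ones 195 (10.9%) were higher and 81 (4.55%) lower. Among 1788 other shared regions that border a gap of more than 200 kb without flanking a member, 128 (7.16%) were higher and 96 (5.37%) lower. This set was not matched to the flanking regions in gap length. The median log2 change was 0.00 at flanking regions and −0.02 at all shared regions. Centring sets the zero: scaled by depth alone, all shared regions shifted by 0.27 in log2, and flanking calls became 312 higher and 4 lower (17.5% and 0.225%, against 12.6% and 0.545% of all). With the authors' fold enrichment as height, 48 flanking regions were higher and 29 lower (2.70% and 1.63%), against 2.05% and 3.01% of all shared regions and 2.18% and 2.24% of those bordering a gap. The share of higher calls at flanking regions was then close to the others, while the share of lower calls was still below them. The difference between flanking and other shared regions was not tested, since regions are not replicates.

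The flanking regions with the smallest adjusted p are given as examples. On LUXX01062794.1 at 2141414 to 2142105, 108 kb from the nearest member, height over the library median was 0.818, 0.828 and 0.886 in control replicates 1 to 3 and 1.86, 1.97 and 1.74 in deoxyshikonin replicates 1 to 3. The log2 change was 1.14 (SE 0.135, limma adjusted p = 2.26e-10). LUXX01021407.1 at 843525 to 844200 went from 0.659 to 0.727 in the controls to 1.39 to 1.61 (limma adjusted p = 1.02e-08), and LUXX01035852.1 at 2555971 to 2557089 from 0.483 to 0.545 to 1.19 to 1.36 (limma adjusted p = 1.48e-08). Among those that fell, LUXX01026650.1 at 528813 to 529588 stood at 2.09, 2.21 and 2.25 in the controls and at 1.39, 1.03 and 1.21 under deoxyshikonin. Its log2 change was −0.86 (SE 0.125, limma adjusted p = 9.80e-08). LUXX01094239.1 at 103841 to 104678 fell by 0.84 and LUXX01024239.1 at 108417 to 109125 by 0.79 on the log2 scale (limma adjusted p = 2.33e-07 and 5.92e-06). These 6 regions were picked by their p, which favours groups that do not overlap, so their separation is no result about flanking regions. Scaled by depth alone, the 3 higher ones kept their calls (limma adjusted p at most 3.44e-08). The 3 lower ones then had limma adjusted p of 0.0317, 0.0396 and 0.0777, so that the last was no longer called.

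In shape, flanking shared regions were compared with other shared regions in all 6 libraries, and none of 8 comparisons passed 0.05 after adjustment. Against the 1788 that border a gap without a member, local background differed by −0.151 ± 0.0165 (lower in 6 of 6 libraries), fold enrichment by 0.228 ± 0.0767 (higher in 6 of 6) and peak width by −19.4 ± 4.73 bp (narrower in 6 of 6; SD, n = 6). Each had an exact sign-flip permutation p of 0.0313, the smallest that 6 libraries can give, or 0.05 after adjustment. Against the remaining shared regions, local background differed by −0.365 and fold enrichment by 0.474 with the same p, while width differed by 5.33 bp and was narrower in 2 of 6 libraries (exact permutation p = 0.344). These remaining regions border no such gap, so the sets differ by choice in how close other shared regions lie. What this adds to the differences was not tested, nor was what gap length adds to those against gap-bordering regions. The percentile of −log10 q gave an exact permutation p of 0.219 and 0.594 in the 2 contrasts. For local background against gap-bordering regions, the mean difference was −0.160 in the controls and −0.142 under deoxyshikonin.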

How the data were processed

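The authors deposited 1 narrowPeak list per library, so peaks were called per library. MACS2 2.1.0, Bowtie2 2.4.2, Trim Galore 0.6.6, deepTools and bcl2fastq 2.17 were used, per the submitters' processing notes. Their settings and the genome build are not stated there. The lists give the authors' fold enrichment over local background (a ratio), −log10 p and −log10 q, a deposited score of 10 times the −log10 q, and a summit offset. Total reads are unknown. Pileup and local background were solved from fold enrichment, (pileup + 1) / (background + 1), and the Poisson p, and 100% of peaks matched to a relative tolerance of 0.0001. The lowest background of a list was taken as its depth.

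The members and lists of regions were chosen with earlier results of these data known. Named regions are the 8 highest and 3 lowest members by mean percentile of −log10 q, the 5 farthest, the 3 widest, 3 on each side of the limit, the 3 densest groups, the 5 contigs richest in members and the 3 flanking regions with the smallest adjusted p in each direction. Groups were compared by exact permutation over libraries, isolated with near regions by exact sign flips over libraries, and heights with limma 3.58.1 (trend). The limma fit, the merging and the pileup solution were tested on simulated data. The gap-bordering regions, distance classes, densities (grid of 100 bp) and expected control pileups were added after the data were examined. Software was R 4.3.3 and Python 3.11.15 with scipy 1.17.1, pandas 2.3.3, numpy 2.4.6 and matplotlib 3.10.9.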

Additional observations from a re-analysis of the deposited data

How the results depend on the processing

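The lower local background of isolated drug-only regions and both differences in one-library shares kept their direction under every alternative run (17, 18 and 18 alternatives). The choice of members enters the background difference and the share beside members under each of them. No permutation p here can pass 0.05. In size, the background difference of −0.254 was −0.131 in equal lists, and the far-share difference of 17.3 points was 11.5 at 200 kb. The 2228 members became 1258 with a limit of 200 kb, 1225 when far from any region with a control peak and 464 in equal lists, each stricter or shorter by construction, and 1913 to 3005 leaving out single libraries. The width difference reversed to −1 bp in equal lists, and ran from 0.50 to 7 bp with libraries left out. The percentile difference reversed to −0.129 on contigs with at least 30 regions, −0.0682 for peaks with −log10 q of at least 5 and −0.119 with peaks up to 500 bp apart merged, and ran from −0.167 to 0.616 with libraries left out (−0.167 and −0.0573 without deoxyshikonin replicates 1 and 3); the cause was not tested. The fold difference reversed to −0.10 in log2 with pileup over library background. Flanking calls (195 higher, 81 lower) were 101 and 42 at 200 kb, 122 and 52 away from any control peak, 69 and 24 in equal lists, where fewer regions flank members, 312 and 4 scaled by depth and 48 and 29 with fold enrichment. With libraries left out they ran from 137 to 192 higher and from 48 to 77 lower, with 48 lower without control replicate 1. With a replicate block there were 193 higher and 80 lower flanking regions, and the one-library differences of 17.3 and 9.18 points had an exact sign-flip p of 0.25, the smallest possible. Whether the numbers pair the libraries could not be told. Log2 height deviations of same-numbered libraries had correlations of −0.0136 to 0.0034, within the range of −0.0231 to 0.026 over all pairs. Control replicates 1 to 3 each correlated best with a deoxyshikonin library of another number. All these values were small, so the comparison cannot decide on pairing. Of the 8 highest-ranked members, 4 were members under all 17 alternatives of region choice. A missing peak is a call that was not made and does not show closed chromatin. A region far from shared ones on a contig may be near one in the genome, since contigs break the sequence.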
